A study of Mus musculus with 19 samples.

Results

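The microRNAs (miRNAs) mmu-miR-31 and mmu-miR-203 were followed across the liver arrays of a dosing study in mice. They are 2 of the 696 mouse miRNAs on the array. Their values were taken by array name, and the pair was chosen with earlier results of these data known. Liver RNA came from male MutaMouse animals (transgenic mouse strain 40.6, a line that carries a reporter for mutations), 10 weeks of age. For 28 days they received a daily oral gavage of dibenz[a,h]anthracene (DB[a,h]A), a polycyclic aromatic hydrocarbon, and 3 days passed between the final dose and removal of the liver. The control group received only the olive oil in which the compound was dissolved (5 arrays), and the dosed groups received 6.25 (low dose, 5 arrays), 12.5 (middle dose, 4 arrays) or 25 mg/kg/day (high dose, 5 arrays). Per the labels a dose group had 5 animals; the middle dose is represented here by 4. All 19 arrays, with 1 mouse each, were made from whole liver tissue, so fewer cells of a type and less RNA per cell cannot be told apart in any value below.

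A miRNA is a short RNA that pairs with messenger RNAs, mainly through its seed (bases 2 to 8), and lowers their translation and stability. miR-203 is best known in the skin, where it is made as keratinocytes leave the dividing layer and represses the transcription factor p63. miR-31 is made in many epithelia and in fibroblasts, is altered in several human carcinomas, and lies near the Cdkn2a tumour suppressor locus. Neither is a characteristic miRNA of the hepatocyte, the main liver cell, whose dominant miRNA is miR-122.

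The array uses older names without an arm, and its files hold no probe sequences. In that naming mmu-miR-31 is the 5′ arm of its hairpin and mmu-miR-203 the 3′ arm, so both were matched to RefSeq by name (2 of 2, build GRCm38.p6). The mature sequences are shown because they differ in their seeds, which are in capitals, and so would pair with different sites.
mmu-miR-31-5p: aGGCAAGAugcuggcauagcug
mmu-miR-203-3p: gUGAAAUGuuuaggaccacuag
Apart from these, 0 of 1738 mature mouse sequences in the RefSeq table carried the mmu-miR-31 seed and 0 the mmu-miR-203 seed; array names outside that table were not compared. The passenger strands, measured under the starred names mmu-miR-31* and mmu-miR-203*, have other seeds.
mmu-miR-31-3p: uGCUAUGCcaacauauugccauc
mmu-miR-203-5p: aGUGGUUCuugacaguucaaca
The hairpins below show, in capitals, which arm holds the strand that the unstarred probes measure.
Mir31: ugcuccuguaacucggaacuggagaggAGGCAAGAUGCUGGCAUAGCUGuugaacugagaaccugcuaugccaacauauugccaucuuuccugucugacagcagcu
Mir203: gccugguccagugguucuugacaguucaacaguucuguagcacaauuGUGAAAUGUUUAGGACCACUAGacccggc
Mir31 lies on the minus strand of chromosome 4 (chr4:88910557-88910662), with its mature 5′ arm at chr4:88910614-88910635, inside the long non-coding RNA gene Gm49890. Its nearest protein-coding neighbours are Ifne, an interferon gene, 30356 bases away, and Mtap, an enzyme of methionine salvage, 226708 bases away. Mir203 lies on the plus strand of chromosome 12 (chr12:112130880-112130955), with its mature 3′ arm at chr12:112130927-112130948, between Aspg, 3307 bases away, and Kif26a, 13019 bases away. The hairpin gene Gm51289, which gives miR-203b, occupies the opposite strand of the same place, and miR-203b has no probe on this array under that name.

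Each miRNA had 2 probes, and each probe was printed in 10 spots per array. The scanner software's background-subtracted intensity was averaged over the spots of a probe and divided by the array's 75th percentile over the 220 probes detected on every array; a probe counts as detected where most of its spots were flagged as well above background. A level below is the log2 of this ratio for the brighter probe of the miRNA. Levels under a floor of -4.79 were raised to it, and no level of either miRNA was that low. The brighter probes of both miRNAs were detected on all 19 arrays. They were dim, with 11.1 to 52.5 intensity units before scaling, where the negative control spots of an array had a standard deviation (SD) of 1.47 to 2.38 units. The median coefficient of variation over the spots of a brighter probe was 10.5% for mmu-miR-31 and 15.1% for mmu-miR-203 at the high dose, against 7.34% and 6.92% in controls, where the signal was higher.

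The arrays themselves differed with dose. Their 75th percentile was 219 to 491 units in controls, 219 to 372 at the low dose, 176 to 304 at the middle dose and 139 to 226 at the high dose. The labelling spike-ins, RNAs added before labelling, averaged 10.9 ± 0.2, 10.8 ± 0.1, 10.4 ± 0.2 and 10.1 ± 0.2 on the log2 scale in the same order (SD, n = 5, 5, 4 and 5), and 147 to 171, 144 to 174, 131 to 147 and 125 to 150 miRNAs were detected per array. Each of the 3 slides held all 4 groups. The 2 rows of a slide did not: 4 of 5 control, 4 of 5 low dose, 1 of 4 middle dose and 0 of 5 high dose arrays lay in row 1. A quality metric of the scan grid was out of range on control replicate 1, low dose replicate 12 and high dose replicates 8 and 16, and the other 7 metrics were in range on all arrays. The liver label held: the hepatocyte miRNAs mmu-miR-122, mmu-miR-192, mmu-miR-194 and mmu-miR-148a were detected on 19 arrays each.

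mmu-miR-31 was lower on average at the middle and high doses than in controls, and neither difference passed the test. Its level was -3.28, -3.50, -3.08, -3.48 and -3.62 in control replicates 1, 10, 17, 19 and 22. At the low dose it was -3.46, -3.43, -3.34, -3.50 and -3.43 in replicates 3, 11, 12, 18 and 24. In middle dose replicates 5, 6, 14 and 20 it was -3.60, -3.59, -3.67 and -3.93. High dose replicates 7, 8, 15, 16 and 23 had -3.76, -3.92, -3.83, -3.65 and -3.42. The low dose arrays all lay within the range of the controls. At the middle dose 2 of 4 arrays, and at the high dose 4 of 5, lay below every control, while high dose replicate 23 was higher than 3 of 5 controls were. Group means were -3.39 ± 0.22, -3.43 ± 0.06, -3.70 ± 0.16 and -3.72 ± 0.19 in the control, low, middle and high dose groups (SD, n = 5, 5, 4 and 5).

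mmu-miR-203 was lowest on average at the high dose. Its level was -3.79, -3.59, -3.19, -3.22 and -3.35 in control replicates 1, 10, 17, 19 and 22, and -3.82, -3.42, -3.28, -3.45 and -3.18 in low dose replicates 3, 11, 12, 18 and 24. It was -3.89, -3.74, -3.41 and -3.67 in middle dose replicates 5, 6, 14 and 20, and -4.01, -4.12, -3.56, -3.59 and -3.64 in high dose replicates 7, 8, 15, 16 and 23. The groups overlapped: 1 of 5 low dose, 1 of 4 middle dose and 2 of 5 high dose arrays lay below every control, and 1 low dose array lay above them all. The means of the control, low, middle and high dose groups were -3.43 ± 0.26, -3.43 ± 0.25, -3.68 ± 0.20 and -3.78 ± 0.26 (SD, n = 5, 5, 4 and 5).

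**Figure D1:**
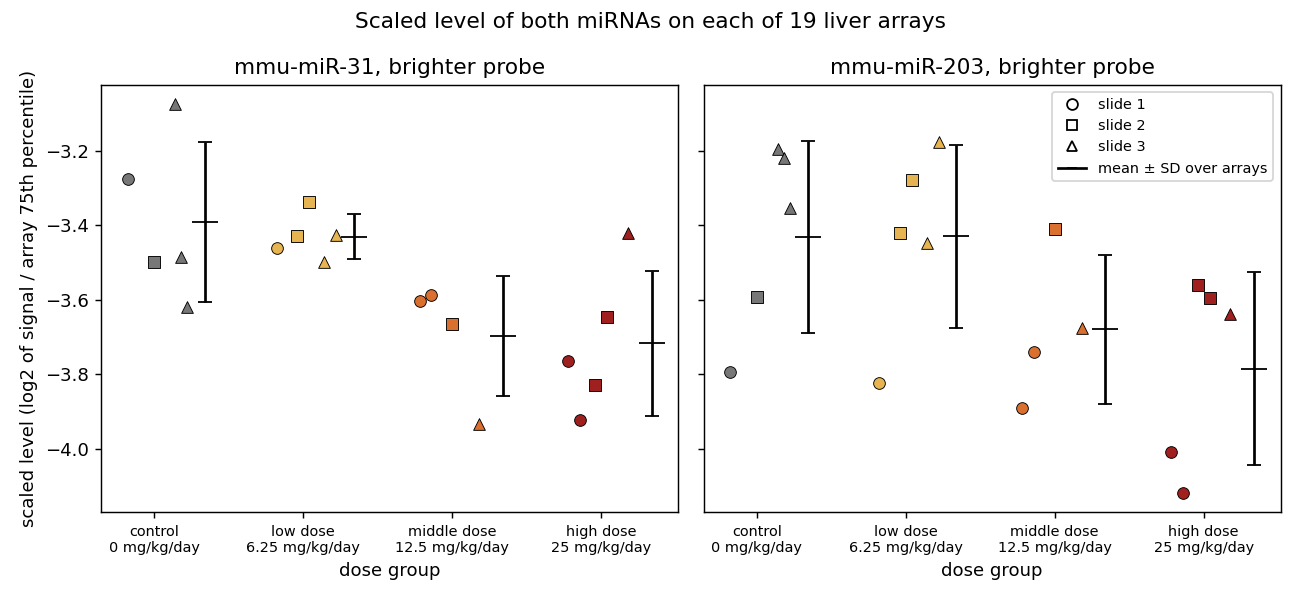
Scaled level (log2 of signal over the array's 75th percentile) of mmu-miR-31 (left) and mmu-miR-203 (right) on each of 19 arrays, by dose group in mg/kg/day; circles, squares and triangles mark slides 1, 2 and 3, and bars show the mean ± SD over arrays. For mmu-miR-31, 4 of 5 high dose arrays lie below every control; for mmu-miR-203, the circles of slide 1 lie lower than the other symbols in every group.

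The slides separated the levels of mmu-miR-203. The 6 arrays of slide 1 lay between -4.12 and -3.74, those of slide 2 between -3.59 and -3.28, and the 7 of slide 3 between -3.67 and -3.18, so slide 1 did not overlap the other slides. Levels of mmu-miR-31 overlapped between slides, with -3.92 to -3.28, -3.83 to -3.34 and -3.93 to -3.08 on slides 1, 2 and 3. For this reason each dosed array was also set against the mean level of the controls of its own slide (1, 1 and 3 controls). For mmu-miR-31, 5 of 5 high dose, 4 of 4 middle dose and 3 of 5 low dose arrays lay below that mean. For mmu-miR-203 these numbers were 4 of 5, 2 of 4 and 2 of 5. High dose replicate 23 was only slightly below it for mmu-miR-31 (-0.03), and not below each control of its slide.

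The question of the design, whether liver miRNAs respond to the dose, was put to both miRNAs with limma fitted to the 172 miRNAs detected on at least 4 arrays, with the slide as a block and Benjamini-Hochberg adjustment over the 172. A miRNA is called where its adjusted p is under 0.05. At the high dose mmu-miR-31 differed from control by -0.33 on the log2 scale (standard error, SE, 0.12; 95% interval -0.58 to -0.08), which is 0.797 times the control level, with an adjusted p of 0.0814 by limma. The difference of mmu-miR-203 at the high dose was -0.26 (SE 0.09; interval -0.45 to -0.07), or 0.836 times control, with adjusted p = 0.0699 by limma. Of the 2 miRNAs 0 were called at the high dose by limma, where 4.07% of the 172 tested miRNAs were called; before adjustment both had a p under 0.05, as did 52 of the 172.

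At the middle dose the log2 difference from control was -0.31 for mmu-miR-31 (SE 0.12; interval -0.57 to -0.05; adjusted p = 0.106 by limma). It was -0.11 for mmu-miR-203 (SE 0.09; interval -0.31 to 0.08; adjusted p = 0.391 by limma). At that dose 0 of 2 were called, against 6.4% of all tested miRNAs, and before adjustment mmu-miR-31 and 51 of the 172 in all had a p under 0.05. The low dose gave differences close to 0, with -0.04 for mmu-miR-31 (interval -0.28 to 0.20; adjusted p = 0.917) and 0.01 for mmu-miR-203 (interval -0.17 to 0.19; adjusted p = 0.962, both by limma). These intervals still allow 0.823 to 1.15 times the control level for mmu-miR-31 and 0.888 to 1.14 times for mmu-miR-203. At the low dose 0 of 2 were called, against 4.65% of all tested, and 0 of 2 had a p under 0.05 before adjustment, beside 27 of the 172.

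Over the whole range of doses, the slope of mmu-miR-31 was -0.0140 log2 units per mg/kg/day (SE 0.00457; adjusted p = 0.0659 by limma) and that of mmu-miR-203 -0.0113 (SE 0.00327; adjusted p = 0.0619 by limma). In the trend 0 of 2 were called, against 1.74% of all tested, and in the F test over all 4 groups 0 of 2 were called, against 1.16%, with an adjusted p of 0.128 for both miRNAs by limma; before adjustment 2 of 2 had a p under 0.05 in both of these tests, as did 49 of the 172 in the trend and 54 in the F test. The call in the trend depended on single arrays. Without high dose replicate 23 the adjusted p for mmu-miR-31 was 0.0303. For mmu-miR-203 the trend gave 0.0497 without control replicate 1 and 0.0101 without control replicate 10, and without control replicate 10 the high dose difference gave 0.0310, all by limma. Of the 172 tested miRNAs, 3, 16, 6 and 7 were called in these fits, in that order.

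The differences within single slides were uneven, and have no test. At the high dose mmu-miR-31 differed from control by -0.57, -0.24 and -0.03 on slides 1, 2 and 3, and mmu-miR-203 by -0.27, 0.02 and -0.38. The middle dose gave -0.32, -0.17 and -0.54 for mmu-miR-31 and -0.02, 0.18 and -0.42 for mmu-miR-203. Direction was the same on all 3 slides for mmu-miR-31 at both doses and for mmu-miR-203 at neither. With the row on the slide added as a block, the high dose difference was -0.33 for mmu-miR-31 and -0.38 for mmu-miR-203, with adjusted p of 0.386 and 0.143 by limma. Before adjustment their p was 0.0542 and 0.00249 by limma, and 1 of the 172 tested miRNAs was called in that fit. Row 2 held 5 of 5 high dose arrays and 1 of 5 controls, so row and dose are hard to separate.

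The tested miRNAs as a whole were slightly higher in dosed animals on this scale, with a median log2 difference of 0.10, 0.15 and 0.10 at the low, middle and high dose. Relative to this median the difference of mmu-miR-31 was -0.14, -0.46 and -0.43, and that of mmu-miR-203 was -0.09, -0.26 and -0.36. At the middle dose 1 of the 172 had a lower difference than mmu-miR-31, and 17 had a lower one than mmu-miR-203. At the high dose these numbers were 6 and 10.

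The call changed with the scaling. With quantile normalization the high dose differences were -0.67 for mmu-miR-31 and -0.52 for mmu-miR-203, each with an adjusted p of 0.00271, and both were also called there at the middle dose, by limma. Of all 172 tested miRNAs, 18 were called there at the high dose and 10 at the middle dose. With no scaling between arrays the high dose differences were -1.03 and -0.97 (adjusted p = 0.00770 for each by limma), while the 172 tested miRNAs had a median of -0.54. In that setting 85 of the 172 were called, 84 of them lower than control. Scaled to the labelling spike-ins, they were -0.24 and -0.17, with adjusted p of 0.600 and 0.673 by limma. The 172 tested miRNAs had a median of 0.19 with that scaling, and 20 of them were called, all higher than control. Under a normexp background correction with an offset of 50 units, more than the signal of either miRNA on nearly all arrays, the sign turned, with 0.17 for mmu-miR-31 and 0.18 for mmu-miR-203, where the median of all tested miRNAs was 0.26. In the authors' deposited table of log2 values, whose normalization the sources used here do not give, the high dose differences were -0.18 and -0.12 (adjusted p = 0.0471 and 0.0478 by limma). Both miRNAs lay below the median of all tested miRNAs at each dose under all 7 of these settings, the main one and one with the percentile over all probes included.

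**Figure D2:**
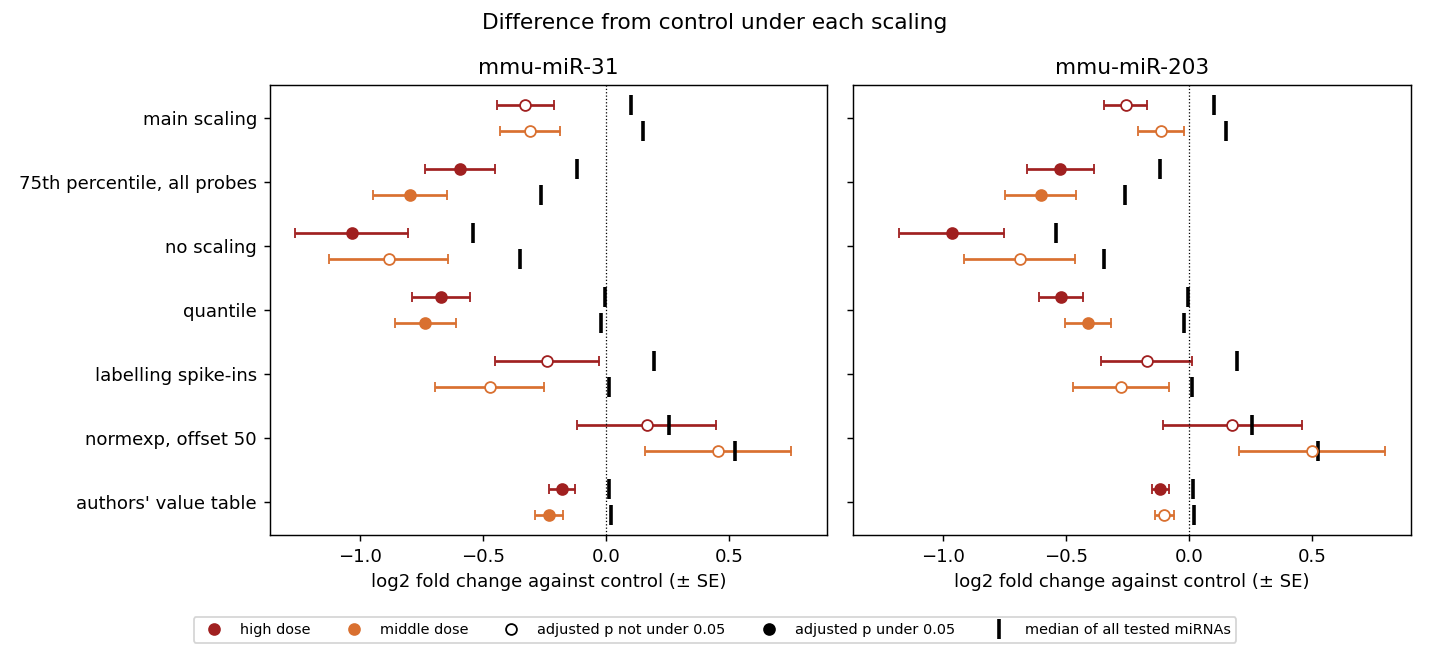
Log2 difference from control (± SE) of mmu-miR-31 (left) and mmu-miR-203 (right) at the high (red) and middle (orange) dose under each scaling; filled points have an adjusted p under 0.05, and black bars are the median difference of all tested miRNAs. The points lie left of their black bar in every setting, but the calls and, for normexp, the sign differ between settings.

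The dimmer probes lay nearer the background. The dimmer probe of mmu-miR-31 read 8.30, 13.4, 23.3, 11.4 and 17.7 units in control replicates 1, 10, 17, 19 and 22, and 7.99 to 14.6 units at the low dose, 3.98 to 8.79 at the middle dose and 4.35 to 7.88 at the high dose. It was detected on 5 of 5 control, 4 of 5 low dose, 0 of 4 middle dose and 0 of 5 high dose arrays. The dimmer probe of mmu-miR-203 read 3.66, 8.72, 15.9, 8.37 and 13.1 units in the same controls, 4.65 to 11.6 at the low dose, 2.40 to 7.34 at the middle dose and 3.08 to 4.83 at the high dose. It was detected on 4 of 5 control, 3 of 5 low dose, 0 of 4 middle dose and 0 of 5 high dose arrays. These are unscaled signals, which were lower over the whole array at the upper doses, as given above. Unscaled, the brighter probes read 22.6 to 52.5 units in controls, 19.9 to 34.6 at the low dose, 14.5 to 19.9 at the middle dose and 11.1 to 20.4 at the high dose for mmu-miR-31. For mmu-miR-203 they read 15.8 to 48.4, 15.5 to 34.8, 11.9 to 23.8 and 11.5 to 17.5 units. No fold change is given for the dimmer probes, since the least signal that counts as detected on the dosed arrays lay above their control level once scaled.

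**Figure D3:**
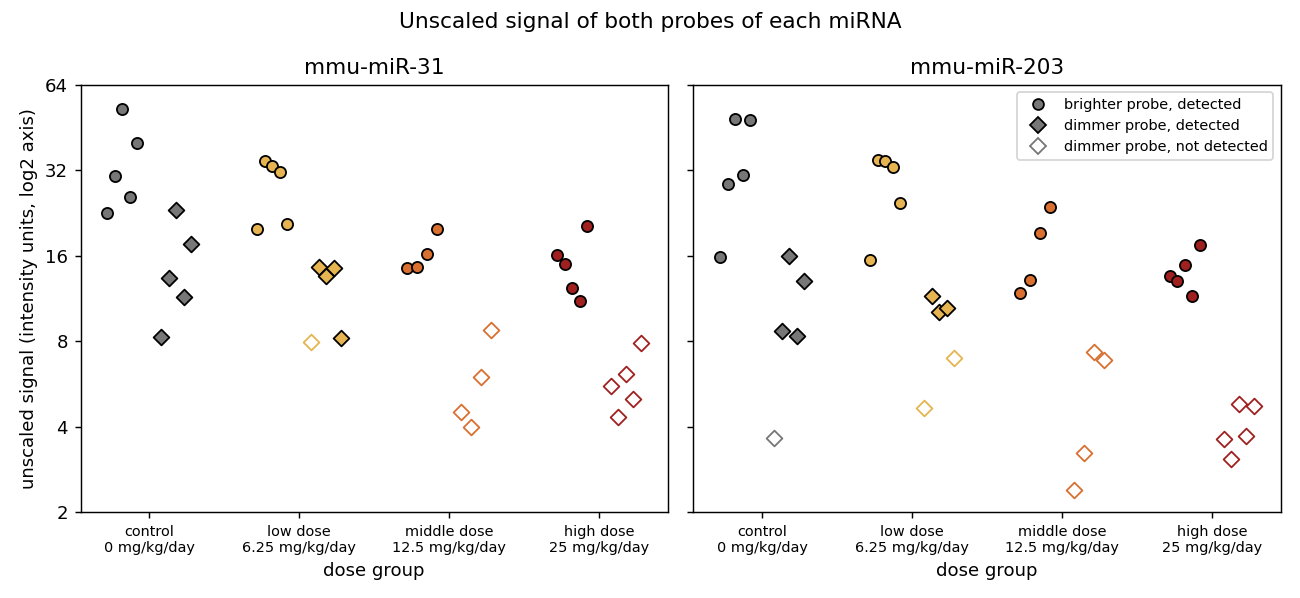
Unscaled signal (intensity units on a log2 axis) of the brighter probe (circles) and dimmer probe (diamonds) of mmu-miR-31 and mmu-miR-203 on each array, by dose group; open symbols are arrays on which the probe was not detected. All diamonds of the middle and high dose are open, and most of those of the controls and the low dose are filled.

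The passenger strands were at the limit of detection. By the rule used for the tests, mmu-miR-31* and mmu-miR-203* were detected on 0 of 19 arrays and were not tested. The scanner software's own flag for a detected gene was set for mmu-miR-31* on 4 of 5 control, 2 of 5 low dose, 0 of 4 middle dose and 0 of 5 high dose arrays, where its brighter probe read 3.78 to 10.2, 1.67 to 6.10, 2.34 to 4.38 and 2.10 to 4.20 unscaled units. It was set for mmu-miR-203* on 0 arrays, and its brightest probe stayed between 0.685 and 3.64 units. The signal of the whole array and the number of miRNAs detected on it were also lower at the upper doses, as given above. Scaled without the floor, the brighter probe of mmu-miR-31* was at -6.01 to -5.44 in controls and -6.70 to -5.70 at the high dose, so these ranges overlapped.

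Both miRNAs varied together over the 19 arrays (Pearson r = 0.53, permutation p = 0.0189, adjusted p = 0.0314; Spearman rho = 0.43, p = 0.0676, adjusted p = 0.0845). These adjustments cover 5 relations, the other 4 being each miRNA against the log2 75th percentile of the array and against the labelling spike-ins. All 5 were permuted freely over the 19 arrays, so their p also carry differences between dose groups and slides. Both levels were also divided by the same array percentile. Without the pair of arrays farthest from the median level of mmu-miR-31, r was 0.41 (n = 17). Within slides 1, 2 and 3 it was 0.84, 0.61 and 0.62 (n = 6, 6 and 7), and after the group and slide means were taken out it was 0.47.

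The level of mmu-miR-203 also moved with the labelling spike-ins (r = 0.78, permutation p = 0.00013, adjusted p = 0.00065; rho = 0.75, p = 0.00041, adjusted p = 0.00205). It held without the pair of arrays farthest from the spike-in median (r = 0.77) and within slides 1, 2 and 3 (r = 0.79, 0.53 and 0.78), and was 0.21 once group and slide means were taken out. For mmu-miR-31 the same relation had r = 0.59 (permutation p = 0.00824, adjusted p = 0.0206) and rho = 0.47 (p = 0.0445, adjusted p = 0.0742), with 0.48 without the farthest pair, 0.96, 0.76 and 0.28 within slides, and -0.07 after group and slide means. The spike-ins themselves were lower at the upper doses, so dose and labelling cannot be told apart in these relations across groups. Against the 75th percentile, r was 0.37 for mmu-miR-31 (permutation p = 0.12, adjusted p = 0.12; rho = 0.36, p = 0.134, adjusted p = 0.134) and 0.50 for mmu-miR-203 (permutation p = 0.0285, adjusted p = 0.0356; rho = 0.47, p = 0.0441, adjusted p = 0.0742). Neither kept its sign on every slide, with -0.09, 0.82 and 0.11 for mmu-miR-31 and -0.50, 0.49 and 0.22 for mmu-miR-203 on slides 1, 2 and 3. Without the pair farthest from the median percentile they were 0.28 and 0.38.

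**Figure D4:**
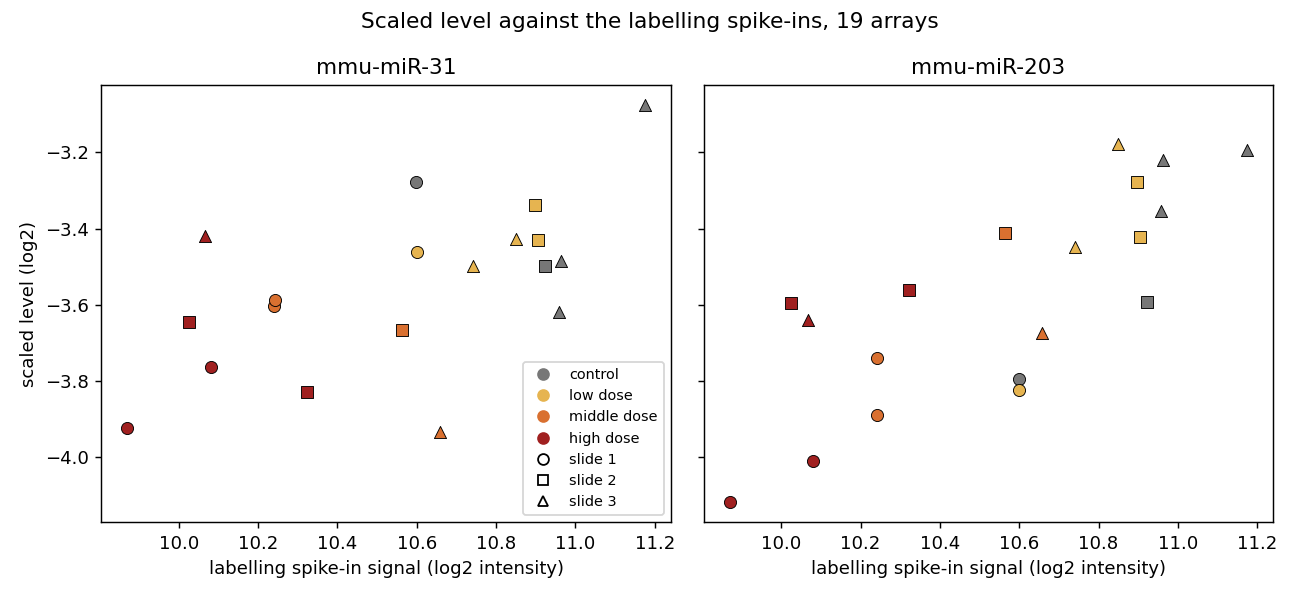
Scaled level (log2) of mmu-miR-31 (left) and mmu-miR-203 (right) against the labelling spike-in signal (log2 intensity) on 19 arrays, coloured by dose group with symbols by slide. High dose arrays lie toward the low end of the spike-in axis, beside some middle dose arrays. Levels of both miRNAs tend to be lower there (r = 0.59 for mmu-miR-31 and 0.78 for mmu-miR-203). High dose replicate 23 is an exception for mmu-miR-31, at -3.42.

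The miRNAs whose levels were most like each member were ranked among the other 171 tested miRNAs by r over the 19 arrays, as a description. For mmu-miR-31 the first was mmu-miR-148a (r = 0.70), which is abundant in hepatocytes and differed from control by -0.18 at the high dose on the log2 scale. It was followed by mmu-miR-340-5p (0.61), at the floor on 14 arrays, mmu-miR-101b (0.55), mmu-miR-203 (0.53) and mmu-let-7g (0.48), a member of the let-7 family. For mmu-miR-203 they were mmu-miR-30e (0.87) and mmu-miR-30b (0.86), both of the miR-30 family, mmu-miR-16 (0.85), mmu-miR-26a (0.82) and mmu-miR-1939 (0.77), and mmu-miR-31 ranked 12. The 2 lists of 5 shared 0 names. The arrays share slides, labelling and depth of signal, which such correlations also carry.

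Both miRNAs are known from epithelia, so they were set beside a list of 10 miRNAs known from epithelia. Of these, 5 were tested: mmu-miR-200a, mmu-miR-200b, mmu-miR-200c and mmu-miR-429 of the miR-200 family, which keeps epithelial cells from a mesenchymal state by repressing Zeb1 and Zeb2, and mmu-miR-96, of the miR-183 cluster of sensory epithelia. mmu-miR-205, mmu-miR-182, mmu-miR-183 and mmu-miR-375 were detected on 0 arrays and mmu-miR-141 on 3. At each dose and in the trend 0 of the 5 rose and 0 fell by limma's test. Of all 172 tested miRNAs 4.65%, 6.4% and 4.07% were called at the 3 doses and 1.74% in the trend, so 0 of 5 is near that share. Before adjustment only mmu-miR-96 of the 5 had a p under 0.05, at the low and middle dose, where 27 and 51 of the 172 did. Their median log2 difference was 0.60, 0.42 and 0.39 at the low, middle and high dose, beside 0.10, 0.15 and 0.10 for all tested miRNAs. This comparison is uneven, because mmu-miR-200c was detected on 0 control arrays and passed the filter through dosed arrays alone. In controls mmu-miR-200c and mmu-miR-429 lay at the floor, so neither could be lower in dosed animals. The middle dose median is the value of mmu-miR-200c, and the high dose median that of mmu-miR-429.

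The miR-200 family was high on single arrays of dosed animals. mmu-miR-200a reached 0.02 in high dose replicate 8, -0.90 in low dose replicate 3, -1.43 in middle dose replicate 6 and -2.10 in middle dose replicate 14, with the other dosed arrays between -4.32 and -3.35 and the controls between -4.13 and -3.02. mmu-miR-200c was at the floor on all arrays except those same 4. The summed linear level of the 5 tested epithelial miRNAs was 0.230 to 0.375 in controls, 0.296 to 1.42 at the low dose, 0.243 to 1.10 at the middle dose and 0.241 to 2.71 at the high dose.

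mmu-miR-31 and mmu-miR-203 were set against these miRNAs array by array, as a description. On high dose replicate 8, where mmu-miR-200a was highest, mmu-miR-31 was at -3.92 and mmu-miR-203 at -4.12, the lowest level of each at that dose. That array, low dose replicate 3 and middle dose replicate 6 were all on slide 1, where mmu-miR-203 was low on every array, including high dose replicate 7 at -4.01, which was not high in mmu-miR-200a. Set against the control of their own slide, mmu-miR-203 was at -0.32 in high dose replicate 8, -0.03 in low dose replicate 3, 0.05 in middle dose replicate 6 and 0.18 in middle dose replicate 14, and mmu-miR-31 at -0.65, -0.18, -0.31 and -0.17.

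Over the 19 arrays r with mmu-miR-200a was -0.23 for mmu-miR-31 and -0.43 for mmu-miR-203. Within slides 1, 2 and 3 it was -0.30, -0.18 and 0.20 for mmu-miR-31, and -0.18, 0.50 and 0.79 for mmu-miR-203 (n = 6, 6 and 7), and after the slide means were taken out it was -0.152 and 0.135. The pooled value of mmu-miR-203 thus did not hold within slides. With mmu-miR-200b the pooled r was -0.27 for mmu-miR-31 and -0.46 for mmu-miR-203, against -0.20 and 0.05 after slide means, and with mmu-miR-96 it was -0.31 and -0.43, against -0.23 and 0.05. mmu-miR-200c and mmu-miR-429 were at the floor on 15 of 19 arrays each, so a correlation with them restates the few arrays above it. Without the 4 arrays highest in mmu-miR-200a, an alternative chosen after seeing the data, the high dose difference was -0.26 for mmu-miR-31 and -0.22 for mmu-miR-203, with adjusted p of 0.170 and 0.107 by limma.

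**Figure D5:**
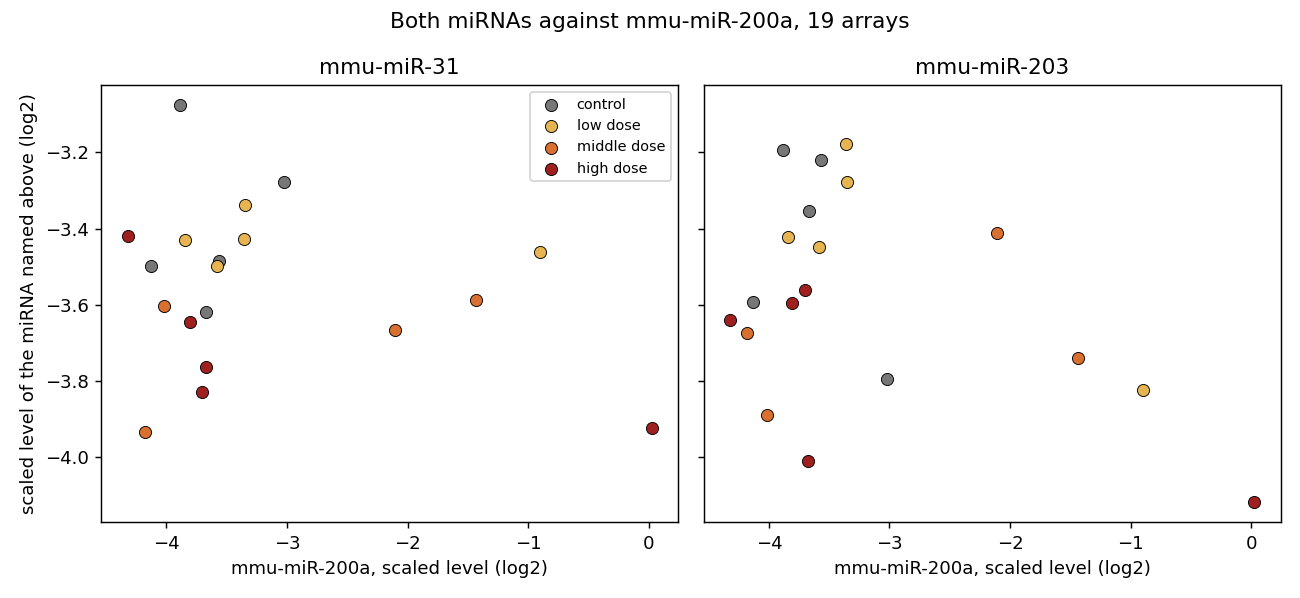
Scaled level (log2) of mmu-miR-31 (left) and mmu-miR-203 (right) against that of mmu-miR-200a on 19 arrays, coloured by dose group. The 4 arrays at the right, all of dosed animals, are high in mmu-miR-200a; 3 of them are on slide 1, where mmu-miR-203 was low on every array.

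Markers of other cells were read beside these values. Of all 172 tested miRNAs 4.65%, 6.4% and 4.07% were called at the low, middle and high dose. Before adjustment 27, 51 and 52 of the 172 had a p under 0.05 by limma. On lists of 2 to 4 miRNAs a count of 0 is near the share called, so it does not show that a marker held. Of 4 hepatocyte miRNAs 0 were called by limma at any dose, with a median log2 difference of -0.02 at the high dose, and mmu-miR-148a alone had a p under 0.05 there before adjustment. Of the 4 tested leukocyte miRNAs 1, mmu-miR-223 of neutrophils, rose at the high dose, by 0.39 on the log2 scale (adjusted p = 0.0454 by limma), and also at the middle and low dose. The summed level of the leukocyte list was 1.05 to 1.48 in controls, 1.48 to 1.58 at the low dose, 1.32 to 1.68 at the middle dose and 1.22 to 1.71 at the high dose, and mmu-miR-150 and mmu-miR-155 were detected on 0 arrays. Of the 2 endothelial miRNAs mmu-miR-126-3p rose at the low dose, by 0.29 (adjusted p = 0.0294 by limma), and 0 were called at the middle and high dose. Among 4 stellate and smooth muscle, 2 erythroid and 2 muscle miRNAs tested, 0 were called by limma at any dose, with mmu-miR-199a-5p and mmu-miR-214 under 0.05 before adjustment at the middle dose, and the 3 pancreatic miRNAs were detected on 0 arrays. The part of cell composition in the levels of mmu-miR-31 and mmu-miR-203 was not tested.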

How the data were processed

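Liver miRNA was measured on 19 one-colour Agilent arrays, 1 per mouse, grouped by the labelled dose. Per the labels' protocols, 100 ng of total RNA was labelled with Cyanine 3-pCp. Per the file headers, Agilent Feature Extraction 10.7.3.1 gave the background-subtracted intensity of each spot, with no scaling between arrays. The authors also deposited a table of log2 values (692 miRNAs, column medians 5.04 to 5.06). Its columns ran in the direction of the scanner signals (Spearman 0.818 to 0.916 over 636 matched miRNAs), and its normalization and any centring are unknown. It served as an alternative.

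Of 14635 spots per array, 13920 were not controls, and 13527 to 13698 remained after outlier flags; 0 were saturated. Of 760 spots of the 2 miRNAs, 17 were flagged, among them 1 at 5642 units on middle dose replicate 6. Spots were averaged per probe, scaled to the 75th percentile over 220 probes, floored at -4.79 (log2), and the brightest probe stood for each of 696 miRNAs. limma 3.58.1 (R 4.3.3; lmFit, eBayes) was fitted to 172 miRNAs with the slide as a block, in 5 tests, each adjusted by Benjamini-Hochberg; apart from the F test, these were two-sided. Correlations used two-sided permutation tests with 100000 resamples (scipy 1.17.1). The fit was tested on simulated data. For arrays, their number limits the precision.

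The members, lists and alternatives were chosen with earlier results of these data known. Named miRNAs were the members, their passenger strands, the 5 most correlated tested miRNAs of each and the tested epithelial list; other miRNAs are on the fixed marker lists. Alternatives covered scaling, background, filters, floor, probe rule, blocks, the groups fitted, the authors' table and leaving out each array.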

Additional observations from a re-analysis of the deposited data

How the results depend on the processing

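No paired analysis was possible because the groups share no replicate numbers. The settings that leave out slide 1 or the 4 arrays highest in mmu-miR-200a, use the dimmer probes or the software's total gene signal, or filter by its gene flag were chosen after seeing the data. The scanner files used here hold the median spot signal, which normexp was given. Raising the floor to -2.79 put both miRNAs at the floor on every array and gave no value. All adjusted p below are limma's, and the cause of a changed call was not tested unless said.

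With the percentile over all probes, both miRNAs were called at the middle (-0.80 for mmu-miR-31, -0.60 for mmu-miR-203) and high dose (-0.59 and -0.52) and in the F test (adjusted p = 0.0145 and 0.0272), and mmu-miR-203 was at -0.0663 at the low dose. Of all 172 tested miRNAs 38, 5 and 24 were called at the middle dose, at the high dose and in the F test. With no scaling both were called at the high dose (-1.03 and -0.97), in the trend (-0.0427 and -0.0400 per mg/kg/day) and in the F test (adjusted p = 0.0326 and 0.0344), and mmu-miR-203 was at -0.17 at the low dose. There 85 of the 172 were called at the high dose (84 lower), 112 in the trend (111 lower) and 21 in the F test. A call with no scaling is thus common to many miRNAs. Quantile normalization called both miRNAs at the middle (-0.73 and -0.41) and high dose (-0.67 and -0.52), in the trend (-0.0276 and -0.0223) and in the F test (adjusted p = 0.00362 and 0.00385), with mmu-miR-203 at -0.0503 at the low dose. It called 10, 18, 16 and 10 of the 172 in these tests, in that order. The software's total gene signal called mmu-miR-31 at the middle dose (-0.59), both at the high dose (-0.56 and -0.50), mmu-miR-203 in the trend (-0.0225) and both in the F test (adjusted p = 0.0233 and 0.0200), and gave mmu-miR-31 0.0136 at the low dose. That signal called 15, 10, 5 and 21 of the 172 in these tests, in that order. In the authors' deposited table mmu-miR-31 was called at the middle (-0.23) and high dose (-0.18), and mmu-miR-203 at the high dose (-0.12) and in the trend (-0.00477), with -0.0266 at the low dose. Of 158 miRNAs tested there, 7, 19 and 20 were called at the middle dose, at the high dose and in the trend. Without the slide block mmu-miR-31 was called at the high dose (-0.33, adjusted p = 0.0487) and in the trend (-0.0141), and with the slide as a random block in the trend (-0.0141). Of the 172, 24 and 22 were called without the block, and 17 in the trend with the random block. The fit of the dimmer probe of mmu-miR-31 at the middle dose gave -0.52 with an adjusted p of 0.0334, which cannot be read as a fold change or a call, since the probe was detected there on 0 arrays.

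Normexp turned the sign of mmu-miR-31 at the low, middle and high dose (0.20, 0.46 and 0.17) and in the trend (0.00520), and of mmu-miR-203 at the middle and high dose (0.50 and 0.18) and in the trend (0.00548). The cause of the changed sign was not tested. At the low dose, where the differences were near 0, mmu-miR-203 was also below 0 with the labelling spike-ins (-0.0448) and with array signal as a covariate (-0.0173), and mmu-miR-31 above 0 without slide 1 (0.00331). Within slides, mmu-miR-31 was at -0.57 on slide 1 and -0.0265 on slide 3 at the high dose and -0.54 on slide 3 at the middle dose, and mmu-miR-203 at 0.24, 0.18 and 0.0155 on slide 2 at the low, middle and high dose and -0.42 on slide 3 at the middle dose.

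Leaving out each of 19 arrays in turn gave mmu-miR-31 -0.0932 to 0.0359, -0.36 to -0.18 and -0.46 to -0.26 at the low, middle and high dose, -0.0197 to -0.0122 in the trend and an adjusted p of 0.113 to 0.197 in the F test. It gave mmu-miR-203 -0.0769 to 0.0495, -0.20 to 0.01 and -0.35 to -0.23, -0.0142 to -0.0104 and 0.104 to 0.269. The sign turned for mmu-miR-31 at the low dose without control replicate 17 (0.0359). For mmu-miR-203 it turned at the low dose without control replicate 10 (-0.0769) or without low dose replicates 12 (-0.0113) and 24 (-0.0401), and at the middle dose without middle dose replicate 20 (0.00575). The count of called miRNAs ran from 0 to 15, 1 to 38 and 1 to 85 at the low, middle and high dose over the other settings, beside 8, 11 and 7, and was 1 to 112 in the trend and 1 to 24 in the F test, beside 3 and 2. Of the calls at the high dose, 6 were higher and 1 lower, against 1 and 84 with no scaling and 20 and 0 with the labelling spike-ins. Leaving out 1 array gave 2 to 13, 2 to 37 and 1 to 27 calls at the 3 doses, 2 to 21 in the trend and 1 to 30 in the F test. The dim signals, at most 52.5 units, limit what can be read at the upper doses.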
